A study of Mus musculus with 8 samples.

Results

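The guanylate-binding proteins are a family of large GTPases encoded in the mouse by *Gbp* genes. The 10 genes *Gbp2* to *Gbp11* were taken by name from the expression table, and each had a row of its own among the 52636 rows of the table. All 10 reached the minimum value for testing and were tested together with 12798 genes in all. RNA had been extracted from Foxp3+ Tregs and Foxp3- Tconvs, each as 200000 CD4+ cells sorted from the spleens of Foxp3 reporter mice aged 6 to 8 weeks. In the CD70Tg mice (CD11c-*Cd70*tg;CD27+/-), CD70, which binds CD27, is expressed from the promoter of CD11c in dendritic cells and other CD11c+ cells, and the controls were CD27+/- mice without this transgene, so that both genotypes carried a single functional *Cd27* allele. The control libraries are named KO in the table and WT in the sample descriptions, and were taken here as the CD27+/- controls. Each of the 4 groups (control and CD70Tg Tconvs, control and CD70Tg Tregs) had 2 libraries, 8 in all. Nothing in the sources used here says whether the 2 libraries of a group came from separate mice, so that p-values measure the spread between these libraries, which may be technical.

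Expression of *Gbp* genes is induced by interferons, above all by IFN-γ, through transcription factors that bind to the gamma-activated site and to the interferon-stimulated response element of their promoters, IRF1 among those of the latter. The proteins assemble on the membranes of vacuoles that hold pathogens and on bacteria, where they break up the vacuole and favor the activation of caspase-1 and caspase-11. They have mostly been studied in macrophages, and are also expressed in T lymphocytes exposed to interferon.

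The 10 genes lie in 2 clusters (GENCODE M21, GRCm38). On chromosome 3, *Gbp5*, *Gbp7*, *Gbp3* and *Gbp2* lie in this order on the plus strand between positions 142493978 and 142638008, a stretch of 144.0 kb which also holds *Gbp2b*, a gene of the family that is not among the 10. On chromosome 5, *Gbp8*, *Gbp9*, *Gbp4*, *Gbp10*, *Gbp6* and *Gbp11* lie on the minus strand between positions 105014150 and 105346472, a stretch of 332.3 kb. *Gbp11* is annotated as a polymorphic pseudogene, and the other 9 genes are annotated as protein coding. The transcripts of *Gbp10* and *Gbp6* are near copies of each other over much of their length. Of the 50-base stretches of *Gbp10*, 73.3% are also in *Gbp6*, and 72.1% are in *Gm43302*, a predicted gene that spans both. Of those of *Gbp6*, 65.0% are in *Gm43302* and 45.9% in *Gbp10*. The values of *Gbp6* and *Gbp10* therefore depend on how reads in shared stretches were assigned, and are uncertain as values of single genes. For the other 8 genes, between 1.4% (*Gbp5*) and 19.2% (*Gbp11*) of the stretches are found in any other gene.

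Promoters in RefSeq (GRCm38.p6, from 250 bases before to 50 bases after the start of transcription) matched 4 of the 10 genes, all of the chromosome 3 cluster. They are shown because they were the promoters found for the 10 genes, all of which rose in Tconvs, by amounts that differed between them. Whether interferon acts on these genes through the letter patterns marked here was not tested. Capitals mark the interferon-stimulated response element core GAAANNGAA, on either strand, and the gamma-activated site GAS, TTCNNNGAA, which reads the same way on both strands. The 2 patterns can overlap, which did not happen in these windows.

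Gbp5 (chr3:142496684-142496983, plus strand): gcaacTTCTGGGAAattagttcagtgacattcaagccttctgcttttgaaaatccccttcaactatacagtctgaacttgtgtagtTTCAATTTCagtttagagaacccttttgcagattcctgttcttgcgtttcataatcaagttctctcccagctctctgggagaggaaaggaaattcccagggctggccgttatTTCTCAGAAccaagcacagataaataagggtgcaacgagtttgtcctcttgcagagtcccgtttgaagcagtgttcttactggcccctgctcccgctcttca

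Gbp7 (chr3:142530086-142530385, plus strand): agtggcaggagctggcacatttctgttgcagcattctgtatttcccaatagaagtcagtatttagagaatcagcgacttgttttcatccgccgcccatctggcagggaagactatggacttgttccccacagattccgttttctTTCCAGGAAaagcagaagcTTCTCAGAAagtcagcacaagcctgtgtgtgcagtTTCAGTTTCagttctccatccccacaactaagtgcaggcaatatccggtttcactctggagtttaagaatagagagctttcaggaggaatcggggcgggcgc

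Gbp3 (chr3:142559794-142560093, plus strand): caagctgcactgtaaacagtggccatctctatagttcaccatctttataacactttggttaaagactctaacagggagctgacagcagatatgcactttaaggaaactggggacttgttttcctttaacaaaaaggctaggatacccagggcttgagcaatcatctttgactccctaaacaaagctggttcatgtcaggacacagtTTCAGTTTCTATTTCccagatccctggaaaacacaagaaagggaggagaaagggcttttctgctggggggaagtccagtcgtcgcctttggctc

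Gbp2 (chr3:142620413-142620712, plus strand): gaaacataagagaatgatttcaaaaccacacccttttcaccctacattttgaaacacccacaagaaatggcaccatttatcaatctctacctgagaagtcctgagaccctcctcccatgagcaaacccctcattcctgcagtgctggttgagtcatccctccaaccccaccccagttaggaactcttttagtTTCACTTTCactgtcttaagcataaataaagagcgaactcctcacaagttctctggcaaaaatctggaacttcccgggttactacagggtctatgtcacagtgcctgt

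A response element core was present in each of the 4 promoters, in every case on the minus strand. Counted from the start of transcription to the first base of the match, it lay at -164 in *Gbp5*, -52 in *Gbp7* and -58 in *Gbp2*, and at -44 and -38 in *Gbp3*, where the 2 matches overlap each other. The second start listed for *Gbp3* had neither pattern in its window. The gamma-activated site was found in *Gbp5*, at -245 and -52, and in *Gbp7*, at -106 and -87, and the letters do not occur in the windows of *Gbp3* and *Gbp2*. Of all 32851 promoters in the table, 8.6% hold the response element core, 8.3% hold the gamma-activated site and 1.1% hold both. These matches are descriptions of the letters in the windows and show no binding.

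The values of the table are reads scaled to 20 M per library and rounded up, so that 20 stands for 1 read per M reads. The number of reads behind the values was recovered from the smallest step of each library. It ranged from 6.94 to 33.28 M in Tconvs and from 1.91 to 4.57 M in Tregs, where the shallowest library was CD70Tg library 1. For the deepest library and for control Tconv library 1, the step is near or below the rounding, and the number of reads is less certain. The value given by 3 reads, taken as the limit of detection (counting error only), lay between 1.8 and 31.3, under every value of the 10 genes. *Foxp3* lay between 19769 and 21367 in Treg libraries and between 1039 and 1497 in Tconv libraries, and *Cd4* between 16100 and 31244 in all 8.

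In Tconvs, all 10 *Gbp* genes rose with the CD70 transgene. The increase ranged from 1.46-fold for *Gbp9* to 4.61-fold for *Gbp10*, and the median over the 10 genes was 1.47 on the log2 scale against 0.01 over all genes tested. At an adjusted p-value under 0.05, 10 of 10 were higher, against 6.82% of all genes tested, and 0 of 10 were lower, against 1.98%. With a log2 fold change over 1 required as well, 8 of 10 were called, against 4.07% of all genes. Both CD70Tg libraries lay above both control libraries for 10 of 10, against 23.7% of all genes.

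*Gbp2*, whose protein coats vacuoles of *Toxoplasma*, had values of 2897 and 2537 in control and of 9266 and 12535 in CD70Tg Tconvs. It rose 3.97-fold (log2 fold change 1.99, SE 0.14, 95% confidence interval 1.69 to 2.29, adjusted p = 7.3e-08). *Gbp3* was found at 480 and 486 in control Tconvs and at 1571 and 2256 in CD70Tg Tconvs. The increase was 3.87-fold (log2 1.95, SE 0.15, adjusted p = 1.5e-07), although CD70Tg libraries differed from each other much more than control libraries did. *Gbp5*, reported to act with the NLRP3 inflammasome, had 965 and 578 in control and 2017 and 2569 in CD70Tg Tconvs. For this gene the control libraries were far apart, and the increase of 3.03-fold (log2 1.60, SE 0.18, adjusted p = 1.5e-05) exceeded that gap. *Gbp7*, linked to autophagy and to the NADPH oxidase, was at 1364 and 1643 in control and at 3109 and 4678 in CD70Tg Tconvs, an increase of 2.54-fold (log2 1.35, SE 0.15, adjusted p = 1.8e-05). The 4 genes of the chromosome 3 cluster had a median log2 fold change of 1.78.

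On chromosome 5, *Gbp10* had the largest increase of the family, from 343 and 281 in control to 1242 and 1690 in CD70Tg Tconvs (4.61-fold, log2 2.20, SE 0.17, adjusted p = 1.6e-07). *Gbp6*, with which it shares sequence, went from 1647 and 1436 to 3043 and 3759 (2.20-fold, log2 1.13, SE 0.13, adjusted p = 1.4e-05), and without CD70Tg library 2 its log2 fold change of 0.98 was under the threshold for a call. The predicted gene *Gm43302*, which overlaps both, moved in the same direction by 1.26 on the log2 scale (adjusted p = 4.4e-06). *Gbp4*, known as a negative regulator of IRF7, had close replicates, at 2148 and 2005 in control and 4965 and 5201 in CD70Tg Tconvs (2.45-fold, log2 1.29, SE 0.12, adjusted p = 1.1e-06). *Gbp11* had the lowest values, 46 and 47 in control against 217 and 173 in CD70Tg Tconvs, and its increase of 3.86-fold had the widest interval (log2 1.95, 95% confidence interval 1.28 to 2.62, adjusted p = 0.00057). The groups did not overlap for any of these genes.

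*Gbp8* and *Gbp9* rose by less than 2-fold and are the 2 genes of the family that were not called. *Gbp8* was at 1049 and 969 in control and 1729 and 2129 in CD70Tg Tconvs (1.90-fold, log2 0.92, SE 0.15, adjusted p = 0.00048). *Gbp9* was at 2942 and 2468 in control and 3772 and 4105 in CD70Tg Tconvs (1.46-fold, log2 0.55, SE 0.12, adjusted p = 0.0055). These genes are neighbors on chromosome 5, whose 6 genes had a median log2 fold change of 1.21. *Gbp9* did not pass the test without control library 2 (log2 0.42, adjusted p = 0.086) and with no minimum value (log2 0.55, adjusted p = 0.063).

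**Figure D1:**
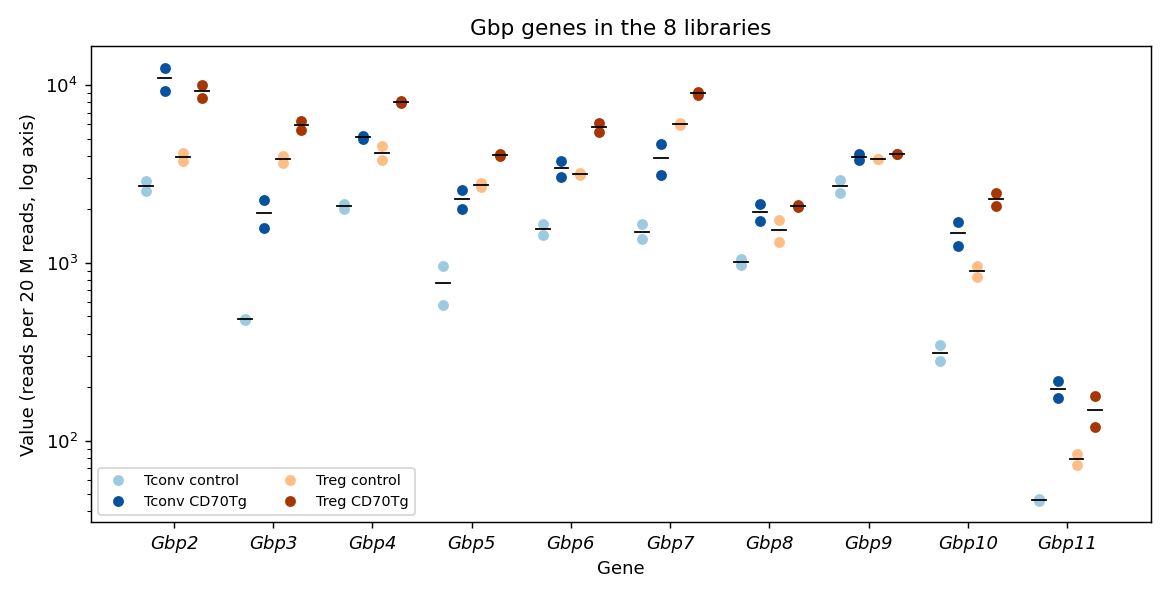
Values of the 10 *Gbp* genes in each library (reads per 20 M, log axis), with points for the 2 libraries of each group and a black line at their mean. In each gene, the control Tconv libraries lie lowest, and both CD70Tg libraries lie above both control libraries of the same subset.

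In Tregs, 6 of the 10 genes rose with the transgene and the other 4 did not pass the test. The median log2 fold change was 0.75, against -0.05 over all genes tested, and the largest increase was again that of *Gbp10*. At an adjusted p-value under 0.05, 6 of 10 were higher, against 3.94% of all genes tested, and 0 of 10 lower, against 3.46%. With a log2 fold change over 1, 2 of 10 (*Gbp10* and *Gbp2*) were called, against 2.52%. Both CD70Tg libraries lay above both control libraries for 10 of 10, against 22.5% of all genes.

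*Gbp2* had values of 4154 and 3753 in control and of 8485 and 9956 in CD70Tg Tregs, and *Gbp10* had 956 and 837 in control and 2101 and 2485 in CD70Tg Tregs. They rose 2.33-fold (log2 1.22, SE 0.14, adjusted p = 5.9e-05) and 2.55-fold (log2 1.35, SE 0.17, adjusted p = 0.00011). *Gbp4*, at 3800 and 4541 in control and 8161 and 7879 in CD70Tg Tregs, and *Gbp6*, at 3111 and 3210 against 6155 and 5470, rose by somewhat less than 2-fold (log2 0.95, SE 0.12, adjusted p = 8.6e-05, and log2 0.88, SE 0.13, adjusted p = 0.00042). In both genes the gap between the groups was several times that between libraries.

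*Gbp3* and *Gbp7* rose to a lesser degree in Tregs. *Gbp3* went from 3994 and 3656 in control to 5590 and 6302 in CD70Tg Tregs (1.55-fold, log2 0.63, SE 0.15, adjusted p = 0.015), and *Gbp7* from 5954 and 6143 to 8808 and 9178 (1.49-fold, log2 0.57, SE 0.15, adjusted p = 0.033). With each of the 4 Treg libraries left out in turn, the log2 fold changes stayed between 0.55 and 0.72 for *Gbp3* and between 0.54 and 0.60 for *Gbp7*, while the adjusted p-values lay between 0.053 and 0.13 and between 0.12 and 0.21. With all 8 libraries, neither passed with limma-voom on recovered reads (adjusted p = 0.052 and 0.11) or with no minimum value (adjusted p = 0.11 and 0.18), where 4 of 10 were higher, against 1.47% and 0.662% of all genes tested in these fits. *Gbp5*, with 2800 and 2658 in control and 4107 and 4008 in CD70Tg Tregs, had a log2 fold change of 0.57 like that of *Gbp7* and did not pass the test (SE 0.18, adjusted p = 0.068). It passed in 7 of 18 alternatives, among them median-of-ratios factors (adjusted p = 0.041), within a range of 0.00037 to 0.28.

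The 3 other genes that did not pass differed in size. *Gbp11* was at 73 and 84 in control and 178 and 120 in CD70Tg Tregs (log2 0.86, 95% confidence interval 0.19 to 1.53, adjusted p = 0.12). With 1.91 M reads in CD70Tg library 1, its values there rest on few reads. *Gbp8* was at 1315 and 1734 against 2059 and 2121 (log2 0.47, 95% confidence interval 0.16 to 0.78, adjusted p = 0.067), and passed in 6 of 18 alternatives (adjusted p between 0.019 and 0.56). *Gbp9* was at 3834 and 3818 against 4117 and 4073 (log2 0.10, 95% confidence interval -0.15 to 0.34, adjusted p = 0.69), the smallest difference of the family in this subset as in Tconvs.

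**Figure D2:**
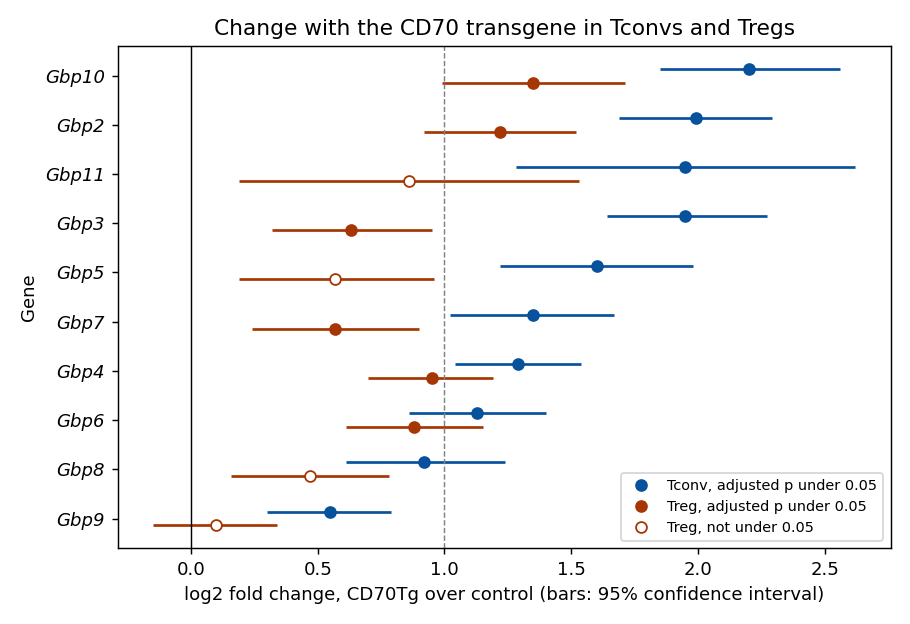
Log2 fold change of each gene, CD70Tg over control, in Tconvs (blue) and Tregs (brown), with 95% confidence intervals; open circles did not pass an adjusted p-value of 0.05 and the dashed line marks a log2 fold change of 1. The Treg point lies to the left of the Tconv point for each gene, with the widest gap for *Gbp3* (0.63 against 1.95).

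The difference between the 2 responses was tested directly. It was below 0 for all 10 genes, that is, the log2 fold change was lower in Tregs, with a median of -0.77 against -0.08 over all genes tested. The test of the difference was passed by *Gbp3* alone, so that 1 of 10 was lower, against 0.828% of all genes tested, and 0 of 10 higher, against 0.188%. For *Gbp3* the difference was -1.32 (SE 0.21, 95% confidence interval -1.76 to -0.87, adjusted p = 0.0043). *Gbp5* (-1.03, adjusted p = 0.076) and *Gbp2* (-0.77, adjusted p = 0.093) followed. *Gbp7* (-0.77) and *Gbp10* (-0.86) had adjusted p-values of 0.12, and *Gbp11* had the second largest difference with the widest interval (-1.09, 95% confidence interval -2.04 to -0.14, adjusted p = 0.37). The smallest differences were those of *Gbp6* (-0.26, 95% confidence interval -0.64 to 0.12) and *Gbp4* (-0.34, 95% confidence interval -0.69 to 0.01). Without CD70Tg Tconv library 1, 5 genes passed (*Gbp2*, *Gbp3*, *Gbp5*, *Gbp7* and *Gbp10*), against 1.83% of all genes lower in that fit, and without control Tconv library 1, 2 passed, against 1.22%. With no minimum value, 0 of 26419 genes passed (limma), and *Gbp3* had an adjusted p-value of 0.24.

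In control mice, *Gbp* genes were more abundant in Tregs than in Tconvs. At an adjusted p-value under 0.05, 9 of 10 were higher in Tregs, against 27.5% of all genes tested, and 0 of 10 were lower, against 18.4%. The median log2 difference was 1.02, against 0.07 over all genes. With median-of-ratios factors, the median over all genes moved to -0.06, a shift of 0.13 that applies to each difference between the control subsets. The largest difference was that of *Gbp3*, 7.84-fold higher in Tregs (log2 2.97, SE 0.15, adjusted p = 2.9e-10), with 3994 and 3656 against 480 and 486 in Tconvs. *Gbp7* (4.03-fold, adjusted p = 3.9e-08) and *Gbp5* (3.63-fold, adjusted p = 5.7e-07), of the same cluster, and *Gbp10* (2.85-fold, adjusted p = 2.6e-06) were next in order. *Gbp6* (2.05-fold) and *Gbp4* (2.00-fold) had moderate differences, and *Gbp8* (1.5-fold), *Gbp2* (1.46-fold) and *Gbp9* (1.42-fold) had small ones that passed the test (adjusted p between 0.0022 and 0.0054). *Gbp2* did not pass with no minimum value (adjusted p = 0.056) and without control Treg library 1 (log2 0.47, adjusted p = 0.055), and *Gbp8* did not pass without control Treg library 2 (log2 0.38, adjusted p = 0.11). For *Gbp11*, the log2 difference of 0.69 did not pass (adjusted p = 0.084), although the libraries of the subsets did not overlap.

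In CD70Tg mice, 6 of 10 were higher in Tregs, against 22.6% of all genes tested, and 0 of 10 lower, against 20.1%, with a median of 0.66 against -0.02 over all genes. These were *Gbp3* (3.15-fold, adjusted p = 3.1e-07), *Gbp7* (2.36-fold, adjusted p = 1.2e-05), *Gbp5* (1.78-fold, adjusted p = 0.0017), *Gbp6* (1.71-fold, adjusted p = 0.00016), *Gbp4* (1.58-fold, adjusted p = 0.00031) and *Gbp10* (1.58-fold, adjusted p = 0.0055). *Gbp10* did not pass without CD70Tg Tconv library 1 (log2 0.43, adjusted p = 0.068) and without CD70Tg Treg library 2 (log2 0.53, adjusted p = 0.066). For *Gbp2*, the log2 difference was -0.23 (95% confidence interval -0.53 to 0.07, adjusted p = 0.21), with 8485 and 9956 in Tregs overlapping the 9266 and 12535 of Tconvs. Without CD70Tg Tconv library 1, it was -0.45 and passed as lower in Tregs (adjusted p = 0.018). The libraries of the subsets also overlapped for *Gbp8* (0.12, 95% confidence interval -0.19 to 0.43), *Gbp9* (0.06, -0.19 to 0.30) and *Gbp11* (-0.39, -1.06 to 0.28). This comparison and the one in control mice use the same libraries as the responses above, so that a gene with low control Tconv values is high in the response of Tconvs and in the control difference alike.

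Set side by side, the CD70Tg Tconvs reached or passed the values of control Tregs for part of the family. Both CD70Tg Tconv libraries lay above both control Treg libraries for *Gbp2*, *Gbp4*, *Gbp10* and *Gbp11*, and below them for *Gbp3*, *Gbp5* and *Gbp7*, of the chromosome 3 cluster. The libraries overlapped for *Gbp6*, *Gbp8* and *Gbp9*. No test was made of this comparison, and the share of all genes lying apart in it was not computed.

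Summed over the 10 genes, the value went from 13881 and 12450 in control to 30931 and 39095 in CD70Tg Tconvs, and from 29991 and 30434 in control to 49761 and 51592 in CD70Tg Tregs. The means were 13200 ± 1010 and 35000 ± 5770 in Tconvs and 30200 ± 313 and 50700 ± 1290 in Tregs (SD, n = 2 each), ratios of 2.66 and 1.68. As a share of all reads on genes, the family took between 0.0623% and 0.0693% in control Tconvs and between 0.248% and 0.256% in CD70Tg Tregs. CD70Tg Tconvs (0.155% and 0.195%) were above control Tregs (0.150% and 0.153%). This order rests on *Gbp2*: without it, the sums were 21665 and 26560 in CD70Tg Tconvs and 25837 and 26681 in control Tregs, and the means had the opposite order (24100 and 26300).

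Levels of different genes were compared as values divided by the length of annotated exons in kb. For *Gbp6* and *Gbp10*, 70.7% and 84.1% of the 50-base stretches are also in other genes. Their levels and places in the order are therefore uncertain. *Gbp2* had the highest level in each group, with 1080 ± 101 per kb in control Tconvs, 4330 ± 919 in CD70Tg Tconvs, 1570 ± 113 in control Tregs and 3660 ± 413 in CD70Tg Tregs (SD, n = 2 each). *Gbp11* had the lowest, between 17.3 ± 0.263 in control and 72.4 ± 11.6 per kb in CD70Tg Tconvs, and the highest level was between 53.8 and 66.2 times the lowest in every group. In control Tconvs, *Gbp9* came next after *Gbp2* (523 ± 64.8 per kb), and *Gbp8*, *Gbp4*, *Gbp7* and *Gbp6* followed at 293 to 259 per kb, where each overlapped with its neighbor in the order.

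The place of *Gbp3* in this order differed between the subsets. In control Tconvs it had place 7 of 10, at 148 ± 1.3 per kb, between *Gbp6* and *Gbp5* without overlap with either. In control Tregs it had place 2, at 1170 ± 73.2 per kb, followed by *Gbp7* at 1080 ± 23.8 per kb. In CD70Tg Tconvs it had place 5, at 586 ± 148 per kb and could not be separated from *Gbp4* before it or *Gbp6* after it, since all genes from *Gbp9* to *Gbp8* overlapped with their neighbors. In CD70Tg Tregs it had place 2 again (1820 ± 154 per kb). *Gbp9* had the opposite shift, from place 2 in both Tconv groups to place 4 in control and place 6 in CD70Tg Tregs, at levels between 740 and 792 per kb in all groups but control Tconvs.

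**Figure D3:**
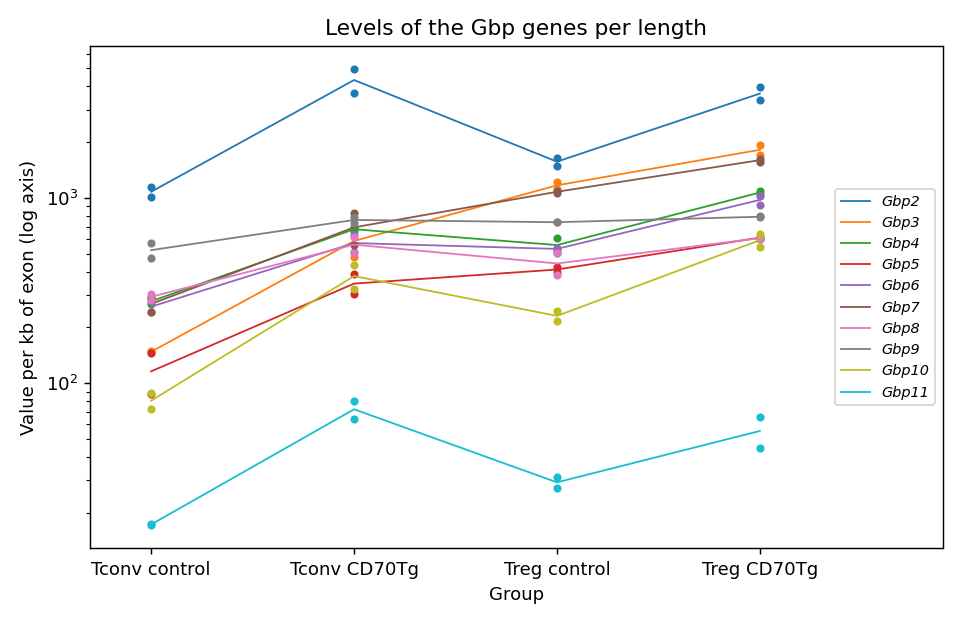
Value per kb of exon (log axis) in the 4 groups, with a point for each of the 2 libraries and lines through the group means. *Gbp2* is highest and *Gbp11* lowest in each group, *Gbp3* goes from 148 per kb in control Tconvs to 1170 in control Tregs, and *Gbp9* stays between 523 and 792.

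The 2 nearest tested protein-coding genes on each side were *Rap1gds1*, *Pdlim5*, *Kyat3* and *Gtf2b* on chromosome 3 and *Zfp951*, *Abcg3*, *Lrrc8b* and *Lrrc8c* on chromosome 5. In Tconvs, 0 of these 8 passed the test (limma, 0 also at an unadjusted p-value under 0.05; 6.82% of all genes tested were higher and 1.98% lower), with log2 fold changes between -0.60 and 0.16, and their distance from the cluster was between 31.4 and 172.9 kb for all but *Rap1gds1*. In Tregs, *Abcg3*, a transporter gene at 31.4 kb from *Gbp8*, fell by 0.76 on the log2 scale (adjusted p = 0.0049). Inside the chromosome 3 cluster, *Gbp2b* was at 26 and 44 in control and 101 and 76 in CD70Tg Tconvs (log2 1.25, adjusted p = 0.0045) and at 840 and 859 against 972 and 1072 in Tregs (log2 0.26, adjusted p = 0.61). It was 21.9-fold higher in control Tregs than in control Tconvs (adjusted p = 1.4e-09).

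**Figure D4:**
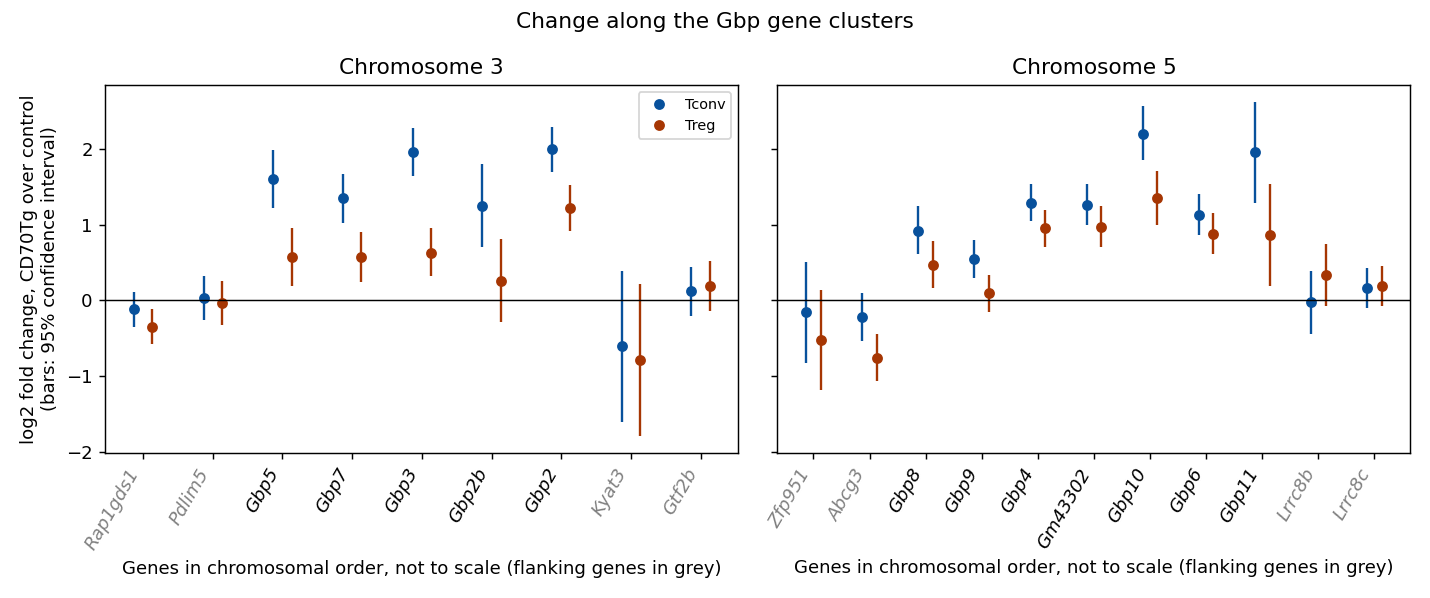
Log2 fold change, CD70Tg over control, for the genes of the 2 clusters and their flanking genes (grey names) in chromosomal order, with 95% confidence intervals, in Tconvs (blue) and Tregs (brown). The Tconv points of the *Gbp* genes lie between 0.55 and 2.20 and those of the flanking genes between -0.60 and 0.16.

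Genes for the pathway that induces the family were described in a list of 18 genes for IFN-γ, its receptor, the kinases and transcription factors of its signaling, and inhibitors, all of them tested. In Tconvs, 12 of 18 rose and 1 fell, and in Tregs 6 of 18 rose and 0 fell, with medians of 0.68 and 0.36 on the log2 scale. Of all genes tested, 6.82% rose and 1.98% fell in Tconvs, and 3.94% rose and 3.46% fell in Tregs. *Ifng* itself was at 105 and 72 in control and 718 and 2111 in CD70Tg Tconvs (log2 3.75, adjusted p = 6.9e-06) and at 64 and 71 against 168 and 300 in Tregs (log2 1.67, adjusted p = 0.016). The ligand-binding receptor chain *Ifngr1* rose in both subsets, by 1.04 (adjusted p = 2.1e-05) and 1.12 (adjusted p = 4.2e-05), whereas *Ifngr2* fell by 0.59 in Tconvs (adjusted p = 0.016) and had -0.23 in Tregs (adjusted p = 0.39). For the receptor-bound kinases, *Jak2* rose by 0.39 in Tconvs (adjusted p = 0.038) and had 0.08 in Tregs, and *Jak1* had 0.06 and -0.12. *Irf1*, a transcription factor for *Gbp* genes, rose in both subsets, by 0.96 (adjusted p = 0.00038) in Tconvs and by 0.83 (adjusted p = 0.0026) in Tregs. The difference between the responses did not pass the test for any of the 18 (limma, 0 at an adjusted and 3 at an unadjusted p-value under 0.05), where 0.828% of all genes tested were lower and 0.188% higher in Tregs. It was -2.08 for *Ifng* (95% confidence interval -3.27 to -0.90, adjusted p = 0.10) and -0.13 for *Irf1* (-0.57 to 0.32, adjusted p = 0.90). Those at an unadjusted p-value under 0.05 were *Ifng*, *Socs3* (-0.97) and *Nlrc5* (-0.63), all below 0 like the *Gbp* genes.

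Of 19 immunity-related GTPases and other large GTPases, most of them induced by interferon, 18 were tested. In Tconvs 12 rose and 0 fell (6.82% and 1.98% of all genes tested), and in Tregs 10 rose and 0 fell (3.94% and 3.46% of all genes tested), with medians of 1.02 and 0.64. Those that rose in both subsets included *Igtp* (1.45 and 1.11) and *Iigp1* (1.86 and 1.37), which act on pathogen vacuoles together with *Gbp* proteins. The atlastins *Atl1*, *Atl2* and *Atl3*, related GTPases that shape the endoplasmic reticulum, had between 0.03 and 0.11 in Tconvs and between -0.19 and -0.04 in Tregs and did not pass. The difference between the responses was passed by *Gm12250* (-0.86, adjusted p = 0.034) and *Gvin1* (-1.39, adjusted p = 0.041), both lower in Tregs, that is, by 2 of 18 against 0.828% of all genes tested. No gene of this list passed as higher in Tregs. Of 25 genes for partners of the proteins in vacuole targeting, prenylation and inflammasomes, 24 were tested. In Tconvs 5 rose and 1 fell, in Tregs 4 rose and 0 fell, with the same shares of all genes as above, and the medians were 0.03 and 0.13. The difference between the responses was passed by 1 of the 24 (0.188% of all genes higher in Tregs). This was *Pycard*, the inflammasome adaptor ASC, which was higher in Tregs, opposite in sign to the *Gbp* genes (0.80, adjusted p = 0.046). *Casp1* (2.75 and 2.24) and *Casp4* (2.42 and 1.87), which encode caspase-1 and caspase-11, were the genes of this list with the largest increases in both subsets, and the ATG genes did not pass the test in either.

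The 5 tested genes whose profile over the 8 libraries was nearest to the mean profile of the family were *Cd274*, *Gm43302*, *Prc1*, *Icam1* and *AW112010*, with root mean square differences of 0.11 to 0.15 on the log2 scale after centering. *Gm43302* shares reads or sequence with *Gbp6* and *Gbp10*. *Cd274*, which encodes PD-L1, was at 767 and 729 in control and 1807 and 2176 in CD70Tg Tconvs, and at 1519 and 1524 against 2675 and 3083 in Tregs. Within the family, *Gbp4* (0.13) and *Gbp6* (0.14) were nearest to the mean, and *Gbp3* was farthest (0.73).

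Markers of other cells that the sorted populations could hold were summed per library. In the study's protocol, CD8+ cells, granulocytes, NK cells, dendritic cells, macrophages and B cells were removed with magnetic beads before CD3+ CD4+ cells were sorted. As the libraries are bulk samples, fewer cells of a type and less RNA per cell cannot be told apart. The 6 macrophage and monocyte markers summed to between 1520 and 1542 in control and between 1135 and 1460 in CD70Tg Tconvs, and to between 2784 and 2802 in control and 2787 and 3012 in CD70Tg Tregs. The sum, most of it *Lyz2* and *Csf1r*, was thus no higher in CD70Tg than in control Tconvs, and higher in Tregs than in Tconvs, as the *Gbp* genes were. Its members went both ways: in Tconvs *Cd68* rose from 79 and 51 to 245 and 306 (adjusted p = 0.00011) and *Itgam* fell (adjusted p = 0.027), and in Tregs *Itgam* rose (adjusted p = 0.013) and *Csf1r* fell (adjusted p = 0.029). *Csf1r*, at 309 to 449 in Tconvs and 762 to 1500 in Tregs, made up most of that difference in control libraries, and its part in the difference between the subsets was not tested. The sum of the 5 dendritic cell markers was higher in CD70Tg libraries of both subsets (177 to 340 against 66 to 133 in Tconvs, 356 to 389 against 94 to 156 in Tregs). Of the 2 that could be tested, *Itgax* rose in Tconvs (adjusted p = 0.015) and *Zbtb46* in Tregs (adjusted p = 0.0017), while *Siglech* had 6 and 28 in control and 0 and 3 in CD70Tg Tconvs. The sum for 4 NK cell markers was also higher (2882 to 3457 against 681 to 757, and 1469 to 1547 against 111 to 157). *Eomes*, itself expressed by T cells, made up the most of it in CD70Tg libraries and in control Tregs. In control Tconvs it had 352 and 258, against 403 and 423 for *Klrb1c*. *Ncr1* was at 0 in 7 libraries and at 2 in the other one. *Klrb1c*, which encodes NK1.1, fell from 403 and 423 to 75 and 68 in Tconvs (adjusted p = 0.0027) and from 64 and 36 to 0 and 11 in Tregs (adjusted p = 0.0035). The 2 CD8 T cell markers summed to 681 to 720 in control and 1563 to 1590 in CD70Tg Tconvs, and both rose. *Cd8a* went from 17 and 28 to 508 and 608, and *Cd8b1* from 703 and 653 to 1055 and 982. In Tregs the sums were 317 to 417 against 631 to 660, and only *Cd8a* rose (25 and 71 to 262 and 223). The 4 erythroid markers were higher in CD70Tg Tregs, all 4 past the test (2329 to 3919 against 541 to 1486), as were the 4 granulocyte markers in sum (165 to 180 against 5). The 5 B cell markers summed to between 151 and 176 in control and 61 and 89 in CD70Tg Tconvs, and to between 254 and 379 in control and 426 and 473 in CD70Tg Tregs, higher in Tregs as the *Gbp* genes were. *Cd79b* was higher in Tregs in control (3.34-fold, adjusted p = 0.00043) and in CD70Tg mice (5.63-fold, adjusted p = 1.9e-05), and *Cd79a* in CD70Tg mice (3.79-fold, adjusted p = 0.00084). The 4 endothelial and stromal markers summed to between 3837 and 5260, mostly *Pecam1*. Of the 3 that could be tested, *Pecam1* was lower in Tregs than in Tconvs (adjusted p = 0.022 in control and 0.00042 in CD70Tg mice). *Col1a1* was higher in Tregs, as the *Gbp* genes were (4.19-fold, adjusted p = 0.00013, and 5.79-fold, adjusted p = 2.4e-05). *Cdh5* did not pass in either. The part of these cells in the *Gbp* values was not tested.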

How the data were processed

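RNA was sequenced from 8 libraries, 2 in each of 4 groups. The authors trimmed reads with Trimmomatic 0.36, mapped them to mm10 with STAR 2.5.3 and counted them with HTSeq 0.9.1. The deposited score is this count, which the authors scaled to a library of 20 M and rounded up. Since it is not a raw count, limma 3.58.1 (R 4.3.3) was run on log2(value + 5), with a trend in the prior variance and a coefficient for each group. Fold changes are on this scale and understate those of low genes. A gene was tested if 2 or more libraries reached 60 (12798 genes), after 4131 clone-named rows had been left out. For 97 names on more than 1 row, the row with the largest total was kept. Each of 5 contrasts was adjusted on its own (Benjamini-Hochberg). A gene rose or fell at an adjusted p-value under 0.05, and was called in a subset when its log2 fold change was also over 1. All adjusted p-values are limma's. The *Gbp* genes and the lists were chosen with earlier results of these data known. The genes named by rule were the 10 members, *Gbp2b*, the 2 nearest genes on each side of each cluster, the 5 nearest profiles, and *Ifng*, *Ifngr1*, *Ifngr2*, *Jak1*, *Jak2* and *Irf1*, and the rule also covers an item not reported here. Other genes named from the lists were picked after their values were seen. Exons came from GENCODE M21, which holds 99.6% of the gene identifiers. A planned comparison of protein sequences was replaced, after the data were seen, by the sharing of 50-base stretches between transcripts. Libraries were matched to groups by the column names. Alternatives were other pseudocounts, minimum values, scalings, thresholds, subsets of the libraries, and limma-voom on recovered reads.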

Additional observations from a re-analysis of the deposited data

Results flagged for a closer look

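The response of *Gbp3* to the transgene, taken as a ratio, differed between the subsets by a test of the difference itself. As values, the group means rose from 483 to 1910 in Tconvs and from 3820 to 5950 in Tregs. The log2 fold change was 1.32 lower in Tregs than in Tconvs (difference -1.32), with 480 and 486 in control against 1571 and 2256 in CD70Tg Tconvs, and 3994 and 3656 in control against 5590 and 6302 in CD70Tg Tregs. Over the 17 alternatives that give this difference, it lay between -1.58 and -1.06 and its adjusted p-value between 0.00014 and 0.24, and it passed the test in 16.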

How the results depend on the processing

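The counts of genes called were recomputed under each alternative, the summed values without *Gbp2* and with median-of-ratios factors, and the log2 fold changes of each gene in each contrast under up to 18. In Tconvs, the count of called genes stayed within 1.5 times of 8. In Tregs, 6 genes passed without a threshold on the fold change, against 2 with it. For the difference between the responses, 0 genes passed with no minimum value, and between 1 and 5 when each library was left out. With a threshold of 1 on the log2 difference, 5 genes in control and 2 in CD70Tg mice were higher in Tregs (14.7% and 12.3% of all genes), against 9 and 6. Without *Gbp2*, the ratio of the summed values was 1.58 in Tregs, against 1.68, and 2.31 in Tconvs, against 2.66. The direction turned for *Gbp8*, between Tregs and Tconvs of CD70Tg mice, where it lay between -0.03 (without CD70Tg Tconv library 1) and 0.27 when each library was left out, and for *Gbp9* in the same contrast, where it was 0 to 2 decimals with median-of-ratios factors and without that library, and at most 0.12 when each library was left out. Neither had passed the test. In all other cases the direction was kept. Call changes by gene and setting were most frequent in Tregs, with 12 lost (*Gbp3* and *Gbp7*) and 13 gained (*Gbp5* and *Gbp8*) out of 180, and the cause was not tested. No paired analysis was possible because the columns of the table carry a running number and not the replicate numbers of the labels. *Gbp11* had the fewest reads of the 10 genes in each library, and the 2 libraries per group limit all p-values.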
